A study of Mus musculus with 8 samples.

Results

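The genes described here carry glucose to lactate and to the mitochondria. They encode glucose transporters, the enzymes of glycolysis, lactate dehydrogenase and the lactate exporters, and the proteins that bring pyruvate into the mitochondrial matrix and oxidise it or carboxylate it. They were taken as a list of 42 gene symbols, out of 56884 genes in the count table, and each of the 42 was found. Messenger RNA was sequenced from cultures of Lacun3 cells, which derive from a lung adenocarcinoma of the mouse. The STK11 KO group was Lacun3 made knockout for Stk11 with CRISPR (4 libraries), and the STK11 WT group was parental Lacun3 (4 libraries). Both lines received no treatment, were grown in the same serum-containing medium and were harvested in logarithmic growth, and the submitters call the 4 cultures of each genotype independent biological replicates. The labels do not say whether the edited cells are a clone or a pool, so every comparison is between these lines of cells.

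Glycolysis splits glucose into pyruvate in the cytosol and yields ATP and NADH. Pyruvate is either reduced to lactate, which regenerates NAD and is exported with a proton by monocarboxylate transporters, or enters mitochondria through the pyruvate carrier and feeds the citric acid cycle through pyruvate dehydrogenase or pyruvate carboxylase. Many steps have several isoform genes that differ in regulation and tissue, and many of these genes are known targets of the hypoxia-inducible factors and of MYC. Stk11 encodes LKB1, the kinase that activates the energy sensor AMPK, and the study compared the lines to find changes inside the tumour cells in the absence of stroma.

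Libraries held 21441601 to 25715008 counts in the STK11 KO group and 18837263 to 21101904 in the STK11 WT group. Levels are given in CPM, a gene's counts scaled to the size of its library, and a single count came to 0.0388 to 0.0515 CPM. Stk11 itself was at 34.7 ± 0.853 CPM in STK11 KO and 66.3 ± 1.79 CPM in STK11 WT (SD, n = 4 each; log2 fold change -0.93 ± 0.06, SE; edgeR adjusted p = 1.12e-12), so part of the message remained. The 5 epithelial markers examined summed to 7699 to 8607 CPM in STK11 KO and 8158 to 8589 CPM in STK11 WT libraries, though single members moved both ways: Krt18 (log2 fold change -0.49) and Epcam (-0.30) fell, Krt19 (0.22) rose, and Krt8 and Cdh1 did not pass. Of 7 markers of alveolar type II cells, 5 stayed under 1 CPM in every library, namely Nkx2-1, Lamp3 and the surfactant genes Sftpc, Sftpb and Sftpa1. Abca3 was at 110 ± 12.2 CPM in STK11 KO and 107 ± 6.31 CPM in STK11 WT. Napsa was at 1.07 ± 0.49 CPM in STK11 KO and 1.32 ± 0.469 CPM in STK11 WT. The list summed to 103 to 129 CPM in STK11 KO and 103 to 117 CPM in STK11 WT, nearly all of it Abca3. As most of these markers were absent or nearly so, the lung label rests on the cell line's name. Of the markers of other cell types, 4 of 5 leukocyte, 4 of 5 fibroblast and 2 of 3 endothelial genes were under 1 CPM throughout. The leukocyte list, in which Adgre1 was at 0 in every library, Ptprc had 1 count in all and Cd68 made up nearly all of the sum, summed to 12.9 to 25.3 CPM in STK11 KO and 46.3 to 52.9 CPM in STK11 WT. The fibroblast list summed to 2.03 to 2.97 CPM in STK11 KO and 3.04 to 4.81 CPM in STK11 WT, and the endothelial list to 3.42 to 4.81 CPM in STK11 KO and 1.05 to 1.81 CPM in STK11 WT. Mitochondrially encoded genes took 1.57% ± 0.262 of counts in STK11 KO and 2.09% ± 0.155 in STK11 WT. The part of these differences in the results below was not tested.

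Most of the pathway stood higher in the knockout line, from the glucose transporter Slc2a1 at the start to Ldha at the lactate branch. Single isoforms at the phosphofructokinase, enolase and pyruvate dehydrogenase kinase steps stood lower, as did the PFKFB gene Pfkfb3 and the pyruvate carboxylase gene Pcx. Of the 42 genes, 37 had enough counts to be tested. Of these 37, 25 rose in STK11 KO, 5 fell and 7 did not pass an adjusted p under 0.05 in edgeR's quasi-likelihood test. Over all 13707 genes tested, 34.4% rose and 33.5% fell, and 67.9% passed in either direction. As a share of those tested, 67.6% of the pathway genes rose and 13.5% fell. The list of pathway genes was chosen with earlier results of these data known. Their median log2 fold change was 0.38, against 0.01 over all genes tested, and their log2 fold changes ran from -1.03 (Pfkm) to 2.00 (Slc2a1). At least 2-fold, Slc2a1, Gapdh and Pgk1 rose (7.03% of all tested genes did so) and Pfkm fell (9.41% of all tested genes did so). The 4 STK11 KO values did not overlap the 4 STK11 WT values in 30 of the 37 genes, or 81.1%, against 60.6% of all genes tested. The pathway genes and all genes tested were not matched for count level. As RNA was taken from whole cultures, a difference in the share of cells that express a gene and a difference in the level per cell cannot be told apart.

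By stretch of the pathway, 16 of 22 tested genes from glucose uptake to pyruvate rose and 3 fell, 2 of 4 tested genes for lactate formation and export rose and none fell, and 7 of 11 tested genes for mitochondrial pyruvate use rose and 2 fell. The shares that rose were 72.7%, 50% and 63.6% in that order, against 34.4% of all genes tested. The shares that fell were 13.6%, 0% and 18.2%, against 33.5% of all genes tested. The median log2 fold changes of these stretches were 0.64, 0.37 and 0.30. The 42 genes together took 3.45% ± 0.173 of all counts in STK11 KO and 2.29% ± 0.0189 in STK11 WT libraries (SD, n = 4 each).

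**Figure D1:**
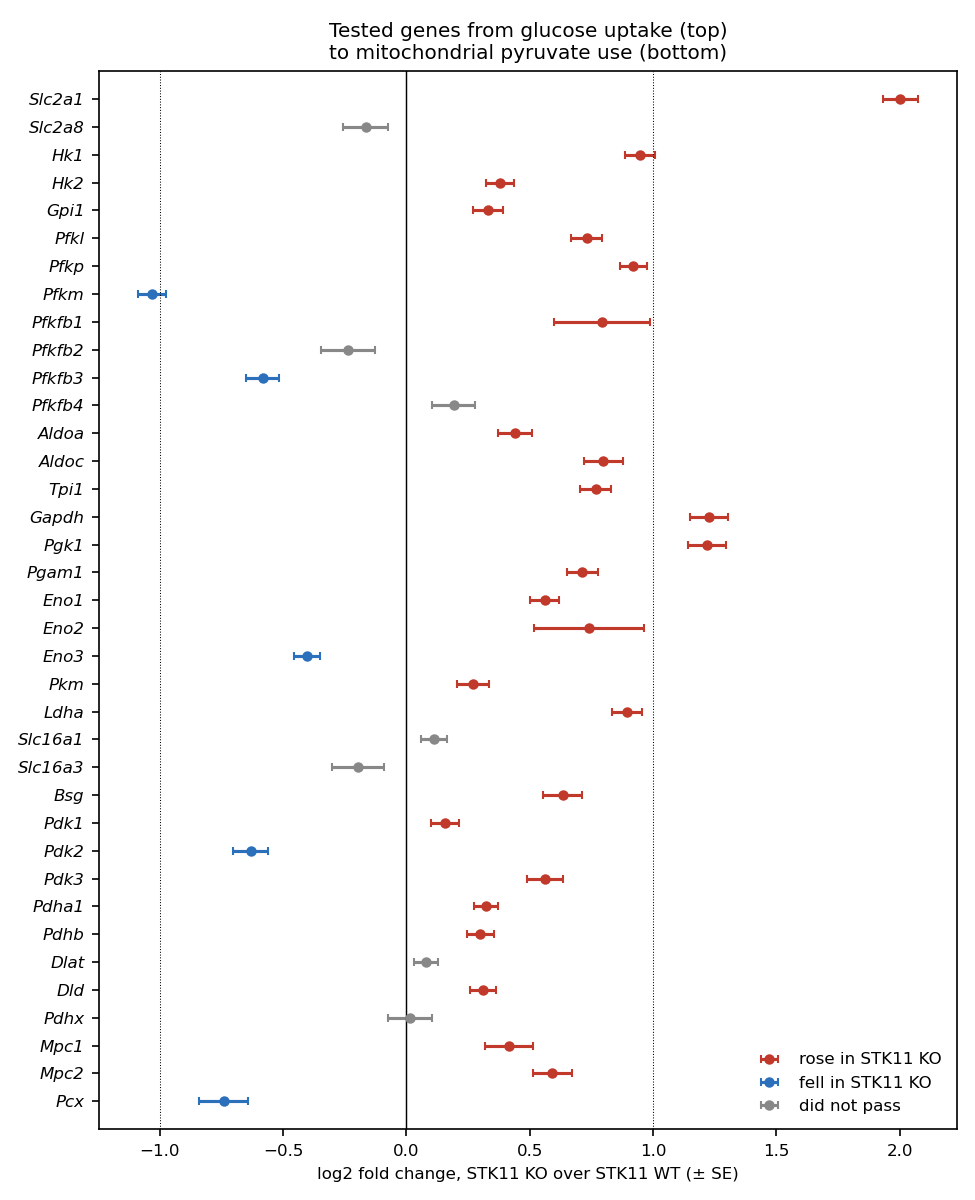
Log2 fold change (horizontal axis, STK11 KO over STK11 WT, with its standard error) of the 37 tested genes in pathway order from top to bottom, with dotted lines at a 2-fold change. Most points lie right of 0, Slc2a1 farthest at 2.00, while Pfkm, Pfkfb3, Eno3, Pdk2 and Pcx lie left of it and passed the test.

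Promoter windows are printed here for the genes that changed at least 2-fold and for Ldha, since these genes moved most or, for Ldha, hold the most copies of the motif searched. They come from RefSeq (GRCm38.p6, a different build from the count table's GRCm39), run 5′ to 3′ on the gene's strand from 250 bases before to 50 bases after a transcript start, and were matched by symbol for 40 of the 42 genes. Capitals mark ACGTG and GCGTG, the core letters of the hypoxia response element, and CACGTG, the E-box bound by MYC and by carbohydrate-responsive factors, each on either strand. CACGTG contains ACGTG on both strands, so its sites count under both. The windows are chr4:119108495-119108794 (plus strand) for Slc2a1, chr6:125165724-125166023 (minus strand) for Gapdh, chrX:106186850-106187149 (plus strand) for Pgk1, chr7:46845554-46845853 (plus strand) for Ldha, and chr15:98092339-98092638 and chr15:98108221-98108520 (plus strand) for 2 of the 4 starts of Pfkm.
Slc2a1: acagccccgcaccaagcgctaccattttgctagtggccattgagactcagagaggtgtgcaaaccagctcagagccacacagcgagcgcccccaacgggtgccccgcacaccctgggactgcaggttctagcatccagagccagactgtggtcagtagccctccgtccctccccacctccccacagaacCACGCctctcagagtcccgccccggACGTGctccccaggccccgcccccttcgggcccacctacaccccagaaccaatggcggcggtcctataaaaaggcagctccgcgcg
Gapdh: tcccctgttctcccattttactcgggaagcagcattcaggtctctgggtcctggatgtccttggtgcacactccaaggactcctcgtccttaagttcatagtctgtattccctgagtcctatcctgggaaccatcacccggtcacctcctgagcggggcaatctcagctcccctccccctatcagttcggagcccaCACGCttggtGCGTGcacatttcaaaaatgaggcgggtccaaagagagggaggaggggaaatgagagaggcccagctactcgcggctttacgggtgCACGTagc
Pgk1: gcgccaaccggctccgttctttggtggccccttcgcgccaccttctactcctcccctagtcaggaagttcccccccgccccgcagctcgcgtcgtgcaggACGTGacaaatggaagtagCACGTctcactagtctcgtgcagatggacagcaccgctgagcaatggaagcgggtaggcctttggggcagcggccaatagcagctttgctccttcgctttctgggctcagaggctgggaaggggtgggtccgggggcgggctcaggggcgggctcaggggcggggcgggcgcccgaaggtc
Ldha: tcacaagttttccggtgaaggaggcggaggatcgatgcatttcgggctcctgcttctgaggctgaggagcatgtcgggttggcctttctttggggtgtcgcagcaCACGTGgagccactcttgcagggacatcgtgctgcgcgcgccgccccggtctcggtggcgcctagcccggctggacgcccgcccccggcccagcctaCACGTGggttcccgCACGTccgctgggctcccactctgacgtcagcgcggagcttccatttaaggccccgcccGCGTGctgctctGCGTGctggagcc
Pfkm start 1: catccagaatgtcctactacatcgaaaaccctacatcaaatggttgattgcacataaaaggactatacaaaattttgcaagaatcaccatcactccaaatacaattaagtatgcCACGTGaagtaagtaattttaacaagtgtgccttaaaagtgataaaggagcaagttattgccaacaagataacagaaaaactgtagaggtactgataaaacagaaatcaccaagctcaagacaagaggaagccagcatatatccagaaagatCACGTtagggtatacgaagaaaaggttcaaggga
Pfkm start 2: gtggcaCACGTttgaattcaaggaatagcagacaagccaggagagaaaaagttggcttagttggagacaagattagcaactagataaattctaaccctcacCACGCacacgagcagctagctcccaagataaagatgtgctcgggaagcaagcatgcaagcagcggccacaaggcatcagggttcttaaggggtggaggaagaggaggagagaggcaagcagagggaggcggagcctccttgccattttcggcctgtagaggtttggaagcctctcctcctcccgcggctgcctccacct

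ACGTG or GCGTG occurred in 45 of the 61 windows of these genes (73.8%), against 43.8% of all 32851 windows of the same 300 bases in the table. It was present in 25 of 37 windows of genes that rose (67.6%), in 8 of 11 windows of the 5 genes that fell (72.7%) and in 8 of 9 windows of genes that did not pass (88.9%). CACGTG was in 1 of 37 windows of risers (2.7%) and in 4 of 11 windows of fallers (36.4%), against 7.15% of all windows. Several windows belong to the same gene and some overlap. The Ldha window printed above held 5 copies of ACGTG, 2 of GCGTG and 2 of CACGTG. For Pfkm the 2 starts listed first were printed. Of those not printed, start 3 held 1 copy of GCGTG and start 4 held none of the motifs. The matches are letters in these windows and do not show binding.

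Among the listed glucose transporter genes, most message came from Slc2a1, which encodes GLUT1, the basal glucose transporter of most proliferating cells. Slc2a1 (chromosome 4, 118965908 to 118995180, plus strand, GRCm39) was at 1959, 1581, 1666 and 1656 CPM in STK11 KO replicates 1 to 4, against 433, 439, 451 and 388 CPM in STK11 WT replicates 1 to 4. Every knockout library lay more than 1000 CPM above the highest parental one. The gene rose 4.01-fold (log2 fold change 2.00 ± 0.07, SE; edgeR adjusted p = 5e-17), the largest rise among the tested genes of the pathway. Slc2a8, which encodes the mainly intracellular transporter GLUT8, was at 16.9, 15.6, 15.3 and 15.7 CPM in STK11 KO, against 14.8, 18.4, 17.6 and 20.5 CPM in STK11 WT, where the groups overlapped (log2 fold change -0.17 ± 0.09; adjusted p = 0.116, 0.0237 without STK11 WT replicate 1 and 0.0231 with scaling by library size alone).

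Slc2a3, the gene for the high-affinity neuronal transporter GLUT3, and Slc2a6, the gene for GLUT6, had too few counts to be tested. Slc2a3 had 2 counts over the 4 STK11 KO libraries and 23 over the 4 STK11 WT libraries, a parental-to-knockout ratio of 12.2 with a 95% counting interval (exact) of 3.01 to 107. Slc2a6 had 7 and 4 counts. As a share of the 4 transporter genes, in CPM per kb of exon, Slc2a1 held 99.0% ± 0.0559 in STK11 KO and 95.6% ± 0.77 in STK11 WT (SD, n = 4 each; exact permutation test, two-sided p = 0.0286, adjusted p = 0.0429 over the 9 steps with several isoforms). With 4 libraries a side, 0.0286 is the smallest p that this test can give.

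Hexokinases trap glucose in the cell as glucose phosphate. Hk1, the widely expressed form, rose more than Hk2, the inducible form of muscle, fat and many tumours. Hk1 (chromosome 10, 62104634 to 62215687, minus strand) was at 693, 592, 677 and 598 CPM in STK11 KO, against 334, 347, 327 and 319 CPM in STK11 WT, a 1.93-fold rise (log2 fold change 0.95 ± 0.06; adjusted p = 2.46e-12). Hk2 (chromosome 6, 82702006 to 82751435, minus strand) was at 545, 472, 525 and 519.5 CPM in STK11 KO, against 398, 417, 401 and 367 CPM in STK11 WT, a 1.30-fold rise (log2 fold change 0.38 ± 0.06; adjusted p = 4.51e-06). Neither gene overlapped between groups, and the gap between the groups was wider for Hk1. Hkdc1, a further hexokinase family member, was not tested, with 23 counts over the STK11 KO and 9 over the STK11 WT libraries.

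The balance between the 2 hexokinase genes therefore differed between the lines. Per kb of exon, Hk2 held 52.9%, 53.2%, 52.6% and 55.4% of the step in STK11 KO libraries, against 63.0%, 63.2%, 63.7% and 62.1% in STK11 WT libraries (exact permutation test, two-sided p = 0.0286, adjusted p = 0.0429). Which gene leads depends on the length used. Per kb of coding sequence Hk2 held 48.3% ± 1.28 in STK11 KO and 58.0% ± 0.684 in STK11 WT, so that Hk1 was ahead in the knockout and Hk2 in the parental line. The summed level of the step was 1.53 times as high in STK11 KO as in STK11 WT. Gpi1, the isomerase that follows, had 1487, 1321, 1264 and 1355 CPM in STK11 KO, against 1111, 1046, 1097 and 1056 CPM in STK11 WT, and rose by a log2 fold change of 0.33 ± 0.06 (adjusted p = 4.34e-05). Its processed copy Gpi-ps, with which reads may be shared, was at 33.5 ± 2.99 CPM in STK11 KO and 27.1 ± 0.952 CPM in STK11 WT.

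At phosphofructokinase-1, the committed step of glycolysis, the liver-type and platelet-type genes rose and the muscle-type gene fell. Pfkl had 317, 299, 363 and 302 CPM in STK11 KO, against 185, 207, 183 and 196 CPM in STK11 WT (log2 fold change 0.73 ± 0.06; adjusted p = 4.29e-10). Pfkp had 577, 522, 546 and 519 CPM in STK11 KO, against 283, 297, 286 and 278 CPM in STK11 WT (log2 fold change 0.92 ± 0.05; adjusted p = 5.55e-13). Pfkm (chromosome 15, 97990470 to 98030332, plus strand) had 82.8, 74.6, 70.7 and 73.7 CPM in STK11 KO, against 156, 155, 159.8 and 146 CPM in STK11 WT (log2 fold change -1.03 ± 0.06; adjusted p = 1.48e-13). None of the 3 genes overlapped between groups, and Pfkm was the only gene of the pathway to fall 2-fold. Pfkm overlaps Senp1 and Pfkp overlaps Pitrm1 on the opposite strand, by 1156 and 748 bases of gene span, and none of the sources name the strand setting of the counting.

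Expressed per kb of exon, Pfkm held 20.4% ± 1.5 of the phosphofructokinase-1 step in STK11 KO and 47.9% ± 1.49 in STK11 WT (SD, n = 4 each). Pfkl, the gene with the highest mean over all 8 libraries on this scale, held 41.2%, 42.2%, 46.8% and 42.6% in STK11 KO, against 29.1%, 31.2%, 28.4% and 31.3% in STK11 WT (exact permutation test, two-sided p = 0.0286, adjusted p = 0.0429). Pfkp held 36.4% ± 0.98 in STK11 KO and 22.1% ± 0.0877 in STK11 WT. The annotated exons of Pfkp add up to 13401 bases, more than for any of the other 41 genes, which lowers its value on this scale. Per kb of coding sequence Pfkp led in both lines, with 55.2% ± 1.49 in STK11 KO and 43.0% ± 0.318 in STK11 WT, and Pfkm held 8.12% ± 0.60 in STK11 KO and 24.4% ± 0.984 in STK11 WT. Pfkl held 36.7% ± 2.09 in STK11 KO and 32.6% ± 1.28 in STK11 WT on that scale, a difference of 4.07 percentage points in place of the 13.2 by exon length (exact permutation test, two-sided p = 0.0286). The direction of each isoform's share was the same on both scales. The summed step was 1.15 times as high in STK11 KO as in STK11 WT by exon length and 1.47 times as high by coding length.

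The PFKFB genes encode bifunctional enzymes that make and remove the sugar bisphosphate that activates phosphofructokinase-1, and as a group they did not move together. Pfkfb3, the form with the strongest kinase activity and the most abundant here, had 49.0, 44.1, 45.4 and 46.9 CPM in STK11 KO, against 70.01, 74.1, 73.2 and 60.4 CPM in STK11 WT, and fell by 0.58 ± 0.07 on the log2 scale (adjusted p = 4.59e-08). Pfkfb1, the liver and muscle form, rose at a low level, with 2.82, 4.71, 3.73 and 4.22 CPM in STK11 KO, against 2.62, 1.53, 2.48 and 2.32 CPM in STK11 WT (log2 fold change 0.79 ± 0.19; adjusted p = 0.000957). The groups did not overlap for either gene, though the lowest knockout value of Pfkfb1 lay close to the highest parental one. The span of Apex2, on the opposite strand, overlaps that of Pfkfb1 by 1640 bases. Apex2 had 712 counts in STK11 KO and 534 in STK11 WT, against 344 and 187 for Pfkfb1.

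Pfkfb4, a form found in testis and in many tumours, had 20.7, 18.6, 17.0 and 19.4 CPM in STK11 KO, against 15.5, 15.4, 18.6 and 16.5 CPM in STK11 WT (log2 fold change 0.19 ± 0.09). It did not pass (adjusted p = 0.0559) and passed without STK11 WT replicate 3 (0.0195), without STK11 KO replicate 3 (0.0135) or with limma on the deposited log2 values (0.0486). Pfkfb2, the heart form, had 8.47, 10.1, 11.7 and 9.22 CPM in STK11 KO, against 10.7, 12.2, 12.8 and 11.02 CPM in STK11 WT (log2 fold change -0.24 ± 0.11). It did not pass either (adjusted p = 0.0565), with 0.0461 without STK11 WT replicate 1 and 0.0059 without STK11 KO replicate 3, and it passed under other scalings, with 0.0478 by DESeq2 size factors, 0.0485 by upper quartile and 0.0194 by library size alone. The span of Yod1, a gene on the opposite strand with more counts, overlaps that of Pfkfb2 by 7032 bases. The share of Pfkfb3 in the step was 49.7% ± 1.48 in STK11 KO and 62.3% ± 2.66 in STK11 WT (exact permutation test, two-sided p = 0.0286, adjusted p = 0.0429), and the summed step was 0.837 times the parental level in the knockout.

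**Figure D2:**
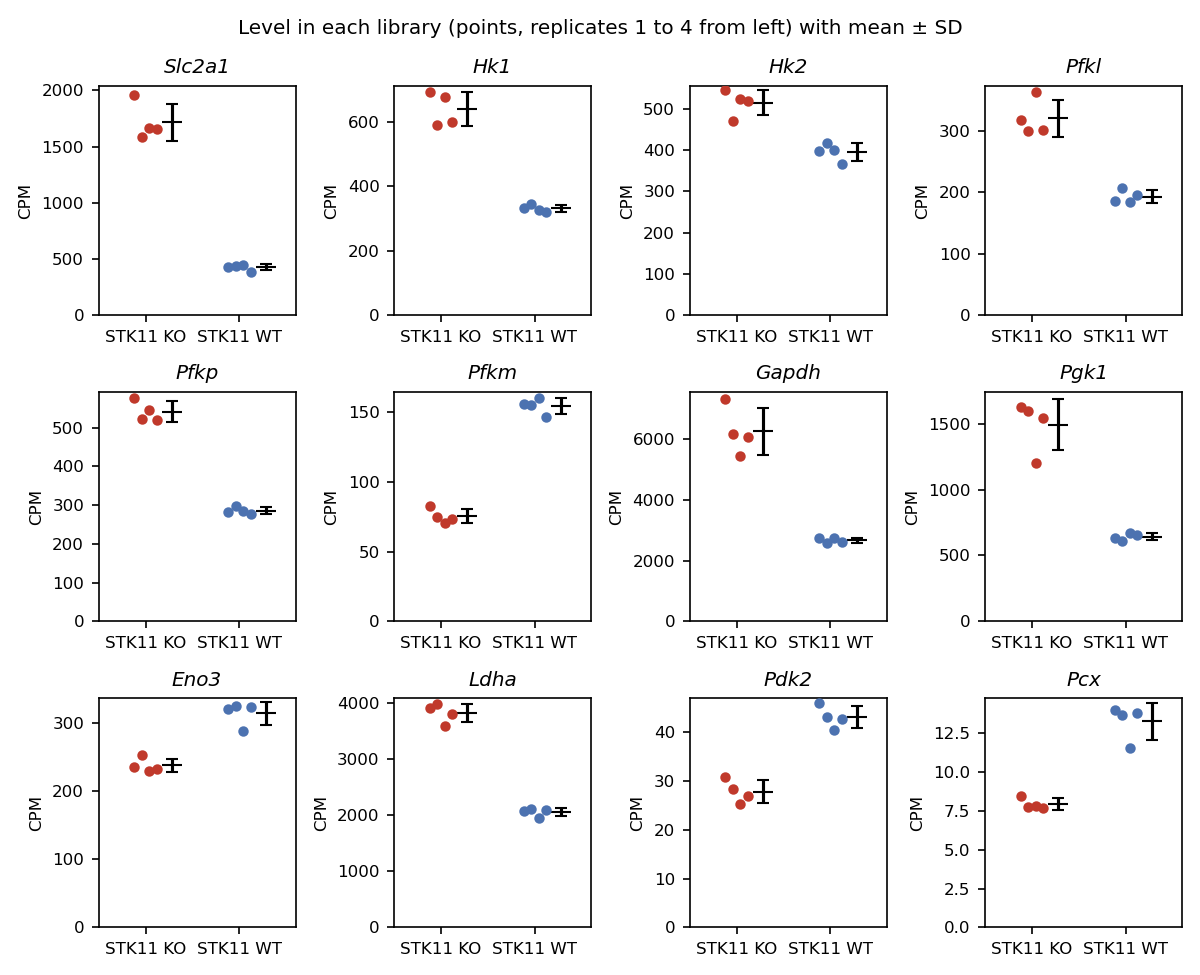
CPM (vertical axis, from 0) of 12 genes in each STK11 KO and STK11 WT library, with the mean and SD of 4 libraries to the right of each group. The groups do not overlap in any panel, with knockout values higher for 8 of the genes and lower for Pfkm, Eno3, Pdk2 and Pcx.

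From aldolase to pyruvate kinase, 9 of 10 genes rose (90%, against 34.4% of all genes tested) and Eno3 fell (10%, against 33.5%). The largest changes were in the middle of this stretch. Aldoa, the main aldolase gene, had 5253, 4742, 4280.2 and 4658 CPM in STK11 KO, against 3556, 3422, 3463 and 3511 CPM in STK11 WT (log2 fold change 0.44 ± 0.07; adjusted p = 4.41e-06). Aldoc, the brain form, had 201, 165, 141 and 169 CPM in STK11 KO, against 103, 94.1, 94.8 and 96.8 CPM in STK11 WT (log2 fold change 0.80 ± 0.08; adjusted p = 6.49e-08). Both stood apart between the lines, and Aldoa made up nearly all of the step, with 96.9% ± 0.189 in STK11 KO and 97.6% ± 0.0645 in STK11 WT per kb of exon (exact permutation test, two-sided p = 0.0286, adjusted p = 0.0429). The symbol Aldoa has a further row in the count table (ENSMUSG00000114515.3) with 1.84 ± 0.151 CPM in STK11 KO and 1.39 ± 0.251 CPM in STK11 WT, which did not pass and is not counted among the 42.

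Tpi1, which interconverts the triose phosphates, had 2521, 2335, 2216 and 2252 CPM in STK11 KO, against 1393, 1413, 1285 and 1383 CPM in STK11 WT (log2 fold change 0.77 ± 0.06; adjusted p = 1.65e-10). Gapdh (chromosome 6, 125138678 to 125143430, minus strand), which makes the NADH of glycolysis and is often used as a constant reference gene, had 7318, 6182, 5452 and 6088 CPM in STK11 KO, against 2743, 2571, 2744 and 2627 CPM in STK11 WT. Its lowest knockout value was far above its highest parental one, and it rose 2.34-fold (log2 fold change 1.23 ± 0.08; adjusted p = 1.79e-12). Pgk1 (chromosome X, 105230706 to 105247305, plus strand), the first ATP-yielding enzyme of the pathway, had 1624, 1593, 1204 and 1542 CPM in STK11 KO, against 632, 607, 667 and 658 CPM in STK11 WT. Knockout replicate 3 was the lowest of its group for both genes and still lay above every parental library. Pgk1 rose 2.33-fold (log2 fold change 1.22 ± 0.08; adjusted p = 2.67e-12). Pgam1, the mutase that follows, had 298, 268, 239 and 255 CPM in STK11 KO, against 158, 170.4, 155 and 163 CPM in STK11 WT (log2 fold change 0.71 ± 0.06; adjusted p = 4.69e-10).

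The enolase genes moved in opposite directions. Eno1, the ubiquitous form, had 1848, 1720.1, 1674 and 1648 CPM in STK11 KO, against 1167, 1207, 1117 and 1178 CPM in STK11 WT (log2 fold change 0.56 ± 0.06; adjusted p = 1.54e-08). Eno3, the muscle form, had 236, 253, 230.5 and 233 CPM in STK11 KO, against 321, 325, 289 and 324 CPM in STK11 WT (log2 fold change -0.40 ± 0.05; adjusted p = 6.92e-07). Eno1 and Eno3 each had groups that did not overlap. Eno2, the neuronal form, had 125, 86.8, 72.2 and 104 CPM in STK11 KO, against 53.9, 50.2, 76.9 and 51.1 CPM in STK11 WT. Its groups overlapped through parental replicate 3, and the rise of 0.74 ± 0.22 on the log2 scale (adjusted p = 0.0224) no longer passed without STK11 WT replicate 1 (0.0556), 2 (0.0587) or 4 (0.0600) or without STK11 KO replicate 4 (0.0542).

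Per kb of exon Eno1 held 67.9%, 66.1%, 67.8% and 66.2% of the enolase step in STK11 KO, against 52.5%, 53.2%, 53.2% and 52.6% in STK11 WT (exact permutation test, two-sided p = 0.0286, adjusted p = 0.0429). Eno3 held 28.7% ± 1.34 in STK11 KO and 44.1% ± 1.02 in STK11 WT. By coding length the shares of Eno1 were 82.8% ± 0.731 in STK11 KO and 74.5% ± 0.411 in STK11 WT. Eno1 has a near-identical retrocopy, Eno1b, whose counts cannot be told apart with certainty. Eno1b was at 296 ± 19.6 CPM in STK11 KO and 206 ± 7.48 CPM in STK11 WT, and the sum of both was 1.47 times as high in STK11 KO as in STK11 WT, close to the 1.48-fold of Eno1 alone. Pkm, the pyruvate kinase gene outside liver and red cells, had 6226, 5546, 5435 and 5379 CPM in STK11 KO, against 4704, 4756, 4591 and 4679.5 CPM in STK11 WT, and showed the smallest rise of this stretch (log2 fold change 0.27 ± 0.07; adjusted p = 0.000949). Counts per gene do not separate its splice forms.

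**Figure D3:**
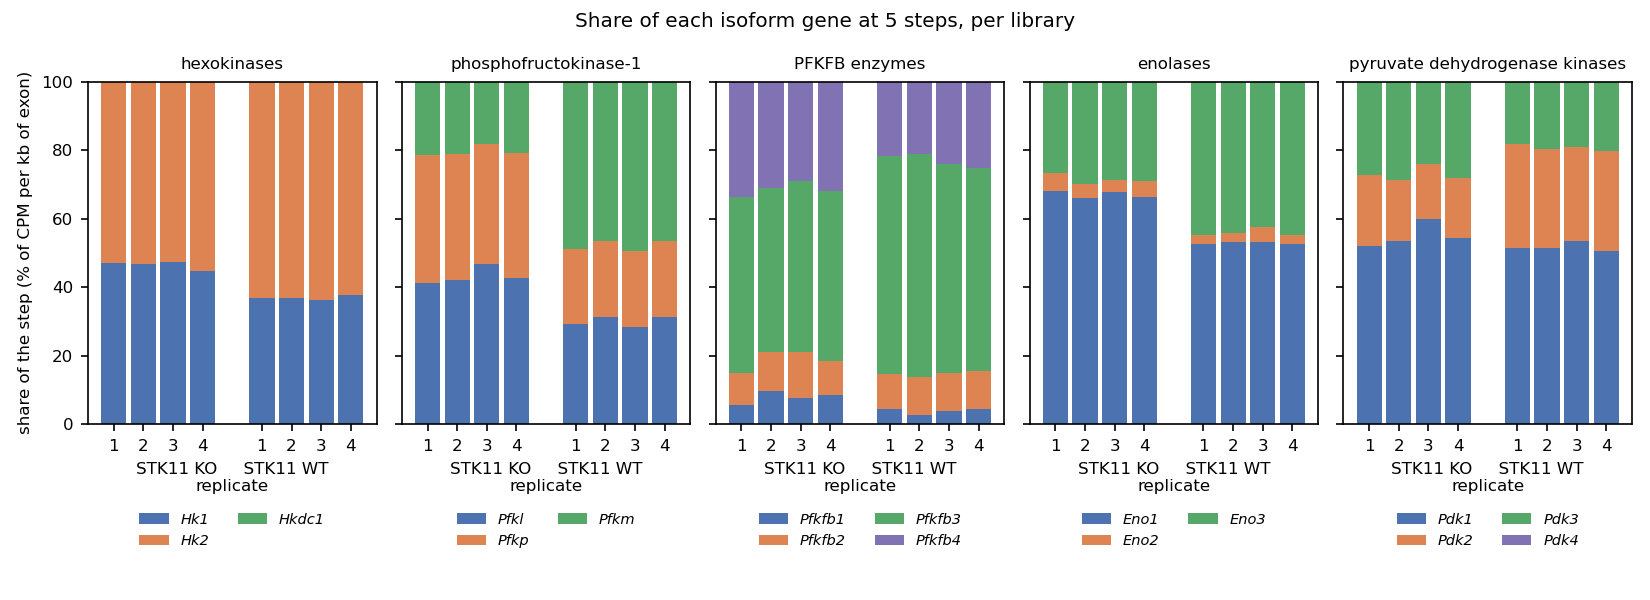
Share of each isoform gene in the summed CPM per kb of exon of its step (vertical axis, percent) in every STK11 KO and STK11 WT library, for 5 steps. Within a line the 4 libraries have similar bars, and between lines the share of Pfkm (20.4% in STK11 KO, 47.9% in STK11 WT), Eno3 (28.7% and 44.1%) and Pdk2 (17.9% and 29.0%) is lower in the knockout.

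At the lactate branch the dehydrogenase rose, and the exporters did not pass. Ldha (chromosome 7, 46490899 to 46505051, plus strand), the subunit associated with making lactate, had 3915, 3986, 3602 and 3808 CPM in STK11 KO, against 2080.0, 2110.1, 1952 and 2094 CPM in STK11 WT, a 1.86-fold rise (log2 fold change 0.89 ± 0.06; adjusted p = 1.08e-11). Every knockout library was above every parental one. Ldhb, the heart-type subunit, had 0 counts in all 8 libraries, which allows a level of up to 0.0338 CPM in STK11 KO and 0.0358 CPM in STK11 WT (3 counts over a group, counting error only). Ldha was thus 100% of the counts of Ldha and Ldhb together in both lines, and its share could not differ.

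Slc16a1, which encodes the monocarboxylate transporter MCT1, had 209, 197, 219 and 199 CPM in STK11 KO, against 193, 193, 182 and 196 CPM in STK11 WT. The groups just failed to overlap, and the log2 fold change of 0.11 ± 0.05 did not pass (adjusted p = 0.065, and 0.0341 without STK11 KO replicate 2). Slc16a3, which encodes MCT4, the exporter typical of highly glycolytic and hypoxic cells, had 14.8, 14.3, 18.0 and 11.9 CPM in STK11 KO, against 15.8, 16.04, 19.2 and 16.7 CPM in STK11 WT (log2 fold change -0.20 ± 0.11; adjusted p = 0.104). Without STK11 KO replicate 3 it was lower in STK11 KO by a log2 fold change of -0.31 (adjusted p = 0.00562), and with scaling by library size alone by -0.28 (adjusted p = 0.0348). The span of Csnk1d, a gene on the opposite strand with far more counts, overlaps that of Slc16a3 by 1879 bases.

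Slc16a1 held 94.4% ± 0.676 of the 2 exporter genes per kb of exon in STK11 KO and 93.1% ± 0.807 in STK11 WT, which did not pass (exact permutation test, two-sided p = 0.0571, adjusted p = 0.0735). Bsg, the chaperone basigin that brings both exporters to the cell surface, did rise. It had 2667, 2140.3, 1894 and 2256 CPM in STK11 KO, against 1503, 1382, 1498 and 1390.4 CPM in STK11 WT (log2 fold change 0.63 ± 0.08; adjusted p = 2.59e-07). Among the 3 genes of lactate export, then, the one that passed was the chaperone, which also has other partners.

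Entry of pyruvate into mitochondria is limited by a carrier of 2 subunits, and both of its genes rose at low levels. Mpc1 had 11.05, 13.7, 12.2 and 12.2 CPM in STK11 KO, against 8.86, 9.08, 8.90 and 10.0 CPM in STK11 WT (log2 fold change 0.42 ± 0.10; adjusted p = 0.000703). Mpc2 had 23.1, 24.9, 24.3 and 25.4 CPM in STK11 KO, against 15.5, 14.97, 16.9 and 17.6 CPM in STK11 WT (log2 fold change 0.59 ± 0.08; adjusted p = 5.48e-07). Neither overlapped between groups.

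The pyruvate dehydrogenase complex turns pyruvate into acetyl-CoA. Of its 5 genes, 3 rose by small amounts (60%, against 34.4% of all genes tested). None fell, against 33.5% of all genes tested. Pdha1, the catalytic subunit that the kinases phosphorylate, had 291, 283, 270.0 and 285 CPM in STK11 KO, against 223, 234, 219.8 and 227 CPM in STK11 WT (log2 fold change 0.32 ± 0.05; adjusted p = 4.93e-06). Pdhb, its partner subunit, and Dld, the lipoamide dehydrogenase shared with other complexes, rose by log2 fold changes of 0.30 ± 0.06 and 0.31 ± 0.05. The acetyltransferase gene Dlat and the binding-protein gene Pdhx had log2 fold changes of 0.08 ± 0.05 and 0.02 ± 0.09 and did not pass (adjusted p = 0.157 and 0.886). The summed level of the 5 genes was 1.21 times as high in STK11 KO as in STK11 WT.

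Pyruvate dehydrogenase kinases switch the complex off, and their genes went both ways while their sum hardly moved. Pdk1, the form induced in hypoxia, had 194, 210.0, 233 and 206 CPM in STK11 KO, against 191, 188, 195 and 182 CPM in STK11 WT. Its groups overlapped, and its rise of 0.16 ± 0.06 on the log2 scale (adjusted p = 0.0177) was lost without STK11 WT replicate 4 (0.0653) or STK11 KO replicate 3 (0.0504) and with scaling by library size alone (0.295). Pdk2 (chromosome 11, 94917084 to 94932180, minus strand), the most widely expressed form in normal tissue, had 30.9, 28.4, 25.2 and 26.9 CPM in STK11 KO, against 46.0, 43.2, 40.5 and 42.8 CPM in STK11 WT, and fell (log2 fold change -0.63 ± 0.07; adjusted p = 3.92e-08). Pdk3 had 33.5, 37.4, 30.7 and 35.3 CPM in STK11 KO, against 22.2, 23.7, 22.9 and 23.7 CPM in STK11 WT, and rose (log2 fold change 0.56 ± 0.07; adjusted p = 3.74e-07). Pdk2 and Pdk3 did not overlap between groups. Pdk4, the form induced by fasting and fatty acids, had 0 counts over the STK11 KO libraries and 16 over the STK11 WT libraries. It was not tested. With 3 counts set for the STK11 KO group in place of 0, it was 5.65-fold lower there. That value takes the 16 parental counts as exact.

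Per kb of exon Pdk2 held 17.9% ± 1.87 of the kinase step in STK11 KO and 29.0% ± 1.26 in STK11 WT, and Pdk3 held 27.1% ± 2.15 in STK11 KO and 19.2% ± 0.836 in STK11 WT. By coding length these differences were smaller, with Pdk2 at 10.8% ± 1.39 in STK11 KO and 17.7% ± 0.899 in STK11 WT and Pdk3 at 13.0% ± 1.35 in STK11 KO and 9.33% ± 0.452 in STK11 WT. Pdk1 led in both lines on both scales, per kb of exon with 52.1%, 53.4%, 60.0% and 54.3% in STK11 KO, against 51.4%, 51.3%, 53.5% and 50.6% in STK11 WT, groups that overlapped (exact permutation test, two-sided p = 0.0857, adjusted p = 0.0964). The summed step was 49.3 ± 1.23 CPM per kb in STK11 KO and 47.1 ± 0.645 CPM per kb in STK11 WT, a ratio of 1.05. Pcx (chromosome 19, 4560500 to 4671780, plus strand), the carboxylase that feeds pyruvate into oxaloacetate, was low and fell. It had 8.47, 7.73, 7.81 and 7.69 CPM in STK11 KO, against 14.0, 13.7, 11.5 and 13.8 CPM in STK11 WT, with no overlap (log2 fold change -0.74 ± 0.10; adjusted p = 6.3e-07). Lrfn4 lies within the span of Pcx on the opposite strand.

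**Figure D4:**
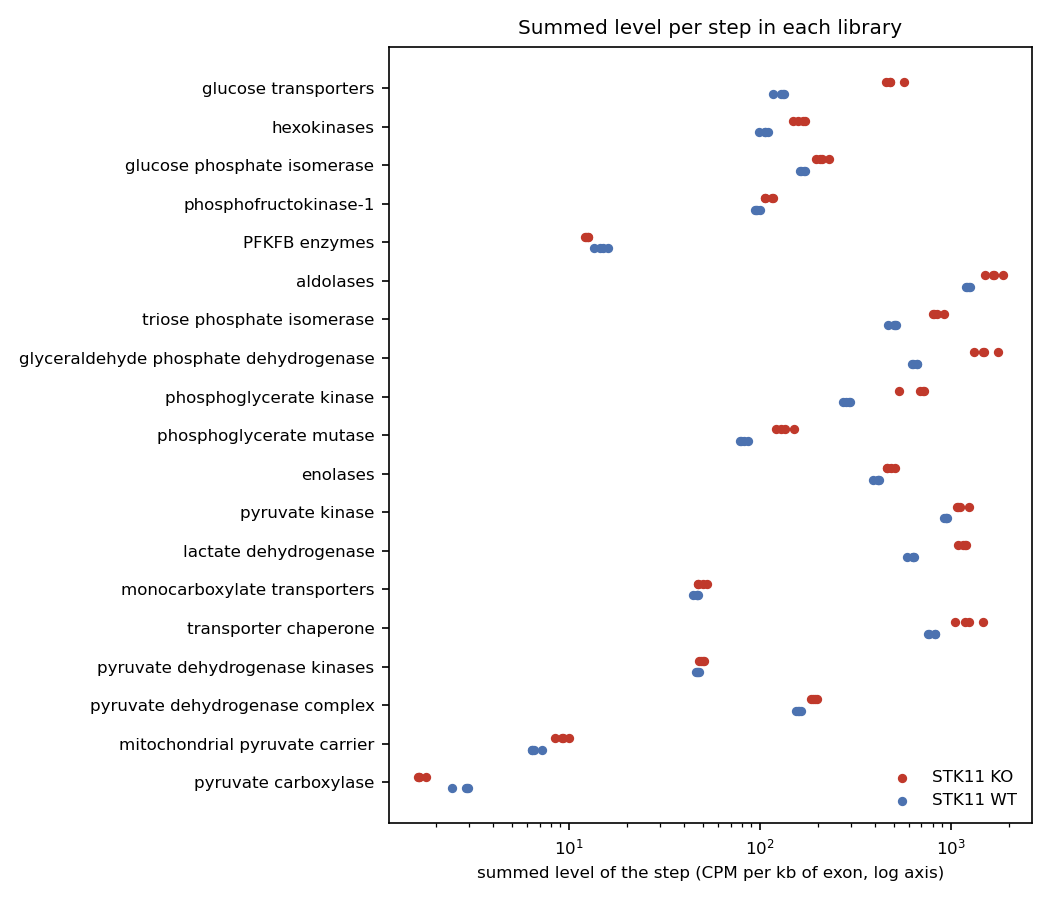
Summed CPM per kb of exon (horizontal axis, logarithmic) of each step in every library, with STK11 KO drawn above STK11 WT and steps in pathway order from top to bottom. The knockout lies right of the parental line at most steps, most at the glucose transporters, and left of it at the PFKFB enzymes and pyruvate carboxylase.

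Summed over isoforms and set per kb of exon, the steps differed far more from each other than between the lines. In STK11 KO the highest steps were the aldolases with 1678 ± 145 CPM per kb, against 1228 ± 21.1 in STK11 WT, and Gapdh with 1515 ± 188, against 646 ± 20.9. Among the steps of glycolysis itself, the PFKFB enzymes apart, the lowest in STK11 KO was phosphofructokinase-1, with 111 ± 5.68 CPM per kb, against 96.4 ± 2.41 in STK11 WT. The lowest in STK11 WT was phosphoglycerate mutase, with 134 ± 12.7 CPM per kb in STK11 KO and 81.4 ± 3.47 in STK11 WT. Ratios of STK11 KO to STK11 WT ran from 0.598 for pyruvate carboxylase to 3.87 for the glucose transporters. These orders depend on the length used. By coding length Gapdh stood above the aldolases in STK11 KO, with 5813 ± 721 and 3930.1 ± 342 CPM per kb, and phosphoglycerate mutase below phosphofructokinase-1, with 348 ± 33.2 and 373 ± 19.5. The summed levels were given no test.

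Other genes around the pathway were taken from a list of 65, drawn up with earlier results of these data known. Of these, 42 were tested, 20 rose (47.6% of those tested), 10 fell (23.8%) and 12 did not pass. Over all genes tested, 34.4% rose and 33.5% fell. None of the 9 other glucose transporters passed, and 8 of them had too few counts. Of 14 further isoenzymes and partners, 4 were tested. Emb, the alternative exporter chaperone embigin, fell by 0.37 ± 0.06 and Ldhd, the D-lactate dehydrogenase, by 0.73 ± 0.09 on the log2 scale.

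Of 11 tested controllers, 5 rose (45.5%) and 4 fell (36.4%), against 34.4% and 33.5% of all genes tested. The hypoxia-inducible factor genes Hif1a and Epas1 rose, Hif1a with 1029 ± 54.1 CPM in STK11 KO and 595 ± 10.97 CPM in STK11 WT, and Epas1 with 56.7 ± 1.64 CPM in STK11 KO and 23.0 ± 0.762 CPM in STK11 WT. Myc, a known activator of glycolytic genes, fell 2.84-fold, with 355 ± 12.3 CPM in STK11 KO and 1007 ± 17.4 CPM in STK11 WT (adjusted p = 7.87e-17). Bpgm, the bisphosphoglycerate mutase, fell by 0.54 ± 0.07 on the log2 scale. These are levels of mRNA, and HIF activity is set mainly by protein stability.

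Of 10 tested genes of glycogen metabolism and gluconeogenesis, 7 rose (70%) and 1 fell (10%), against 34.4% and 33.5% of all genes tested. At least 2-fold, 5 of the 10 rose, against 7.03% of all genes tested. Gys1, the glycogen synthase of most tissues, had 356, 311, 379 and 329 CPM in STK11 KO, against 106, 111, 99.8 and 99.5 CPM in STK11 WT, a 3.30-fold rise (adjusted p = 8.12e-17). Pck2, the mitochondrial form of the enzyme that makes phosphoenolpyruvate from oxaloacetate, had 186, 196, 201 and 183 CPM in STK11 KO, against 75.8, 80.5, 74.8 and 80.2 CPM in STK11 WT, a 2.46-fold rise (adjusted p = 6.79e-16). Pygb, the brain-type glycogen phosphorylase, fell 1.95-fold, with 61.1 ± 7.27 CPM in STK11 KO and 119 ± 3.70 CPM in STK11 WT. Pygl, the liver-type phosphorylase, which is named after its values were seen, rose at a low level, with 3.72, 1.88, 3.30 and 2.97 CPM in STK11 KO, against 0, 0.139, 0.0917 and 0 CPM in STK11 WT (264 and 5 counts; adjusted p = 1.74e-10). None of these 4 genes had overlapping groups.

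The NADH shuttles carry glycolytic reducing equivalents into mitochondria. Of their 10 genes listed, 5 rose (50%, against 34.4% of all genes tested) and 2 fell (20%, against 33.5%). Both fallers encode cytosolic glycerol phosphate dehydrogenases. Gpd1 had 0.768 ± 0.432 CPM in STK11 KO and 12.4 ± 1.28 CPM in STK11 WT (log2 fold change -3.95 ± 0.20; adjusted p = 5.9e-14), and Gpd1l had 54.4 ± 2.56 CPM in STK11 KO and 113 ± 3.14 CPM in STK11 WT (log2 fold change -1.05 ± 0.05; adjusted p = 5.8e-14). The aspartate-glutamate carrier genes Slc25a12 and Slc25a13 rose by 0.36 ± 0.06 and 0.29 ± 0.05. Of 6 genes for pyruvate dehydrogenase phosphatases and lipoylation, 2 rose (33.3%) and 1 fell (16.7%), against 34.4% and 33.5% of all genes tested. Pdp2, a phosphatase that switches the complex back on, rose by 0.40 ± 0.09, Lias, the lipoate synthase, by 0.17 ± 0.07, and Lipt1, a lipoyl transferase, fell by 0.68 ± 0.13 on the log2 scale.

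The knockout libraries varied more among themselves than the parental ones. In 30 of the 37 tested pathway genes (81.1%) the coefficient of variation was higher in STK11 KO than in STK11 WT, as it was in 67.2% of all genes tested. Of the 4 knockout libraries, replicate 1 was the highest in 22 of the 37 genes (27.3% over all genes tested) and replicate 3 the lowest in 18 (30.8% over all genes tested). Bsg, for instance, had 2667 CPM in replicate 1 and 1894 CPM in replicate 3. Without STK11 KO replicate 3 the test called 25 rises and 7 falls, and without STK11 KO replicate 1 it called 25 rises and 5 falls.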

How the data were processed

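Libraries were sequenced as paired reads of 51 bp from 100 ng of RNA per library with a stranded mRNA kit, per the labels' protocols. The deposited table holds the authors' raw read counts of 56884 genes in 8 libraries. They also deposited a table of log2 CPM values in voom's form, used here for 1 alternative only. FastQC 0.11.8, STAR 2.7.9a, featureCounts 1.6.0, edgeR, limma and the build GRCm39 are named, without roles, per the submitters' processing notes. None of the sources name the strand setting or the treatment of multiply mapping reads, so copies and overlapping genes may share or lose reads.

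The members and gene lists were chosen with earlier results of these data known. Counts were filtered with filterByExpr, scaled by TMM and tested with edgeR 4.0.16 (glmQLFit, robust, and glmQLFTest) with genotype as the only term. P-values were adjusted by Benjamini-Hochberg over all 13707 tested genes, and "rose" and "fell" are used at an adjusted p under 0.05. Log2 fold changes are STK11 KO over STK11 WT, and their SE is the fold change over the square root of F. CPM are counts over TMM-scaled library size. Levels per kb use the union of exons in GENCODE M21 (GRCm38), matched by gene ID. Shares were compared by exact permutation over all 70 assignments (scipy 1.17.1), adjusted over 9 steps. Values per library are given for the leading gene of each step, all isoforms of steps with shares, and genes changed 2-fold. From each list of other genes, the named ones are the 2 that rose and the 2 that fell with the lowest adjusted p, or fewer where fewer passed, except 1 gene that is not reported here, and G6pc1 was matched under its older symbol G6pc. Mpc2 values per library were added after they were seen. Same-numbered libraries did not deviate together (correlations of -0.121 to 0.0352), so the numbers were not treated as pairs. Alternatives were other scalings and filters, DESeq2 1.42.0, limma 3.58.1, a replicate block and leaving out each library. The computations used R 4.3.3 and Python 3.11.15.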

Additional observations from a re-analysis of the deposited data

Results flagged for a closer look

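Among 94 groups of 4 libraries examined (the tested genes, the leading share of each step, and Stk11, in each line), 6 held a library far from the other 3 by Dixon's criterion, and chance alone flags about 1 group in 20. Parental replicate 3 accounted for 4 of them. Eno2 was at 76.9 CPM in that library, against 50.2 to 53.9 CPM in the other parental libraries. Eno3 was at 289 CPM, against 321 to 325 CPM. Pcx was at 11.5 CPM, against 13.7 to 14.0 CPM. The share of Slc16a1 among the exporters was 91.9%, against 93.4% to 93.6%. Pcx in STK11 KO replicate 1 was at 8.47 CPM, against 7.69 to 7.81 CPM in the other knockout libraries. The share of Aldoa among the aldolases in STK11 WT replicate 1 was 97.5%, below the 97.6% of the other parental libraries by a small amount.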

How the results depend on the processing

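Of the 37 tested genes, 28 kept both their direction and their side of the threshold under each of the 17 alternatives. The number of genes that rose was 23 to 26 over the alternatives, and the number that fell was 5 to 8, the highest with scaling by library size alone, which counted 24 rises and 8 falls. Without a filter on low counts 7 genes fell. All 37 tested genes kept their calls there, so the added falls lay among genes with too few counts for the main test. With the replicate block, 24 rose and 6 fell, and Eno2 lost its call (adjusted p = 0.092) and Pfkfb2 gained one (0.0408). Reversed signs occurred only in genes that did not pass, Dlat at -0.0037 with library size alone and Pdhx at -0.066 with library size alone, -0.039 without STK11 WT replicate 3, -0.026 without STK11 KO replicate 2 and -0.019 without STK11 KO replicate 3, in a range of -0.039 to 0.102 over the libraries left out. With 3 libraries on one side the exact test of a share cannot reach 0.05, so no call on a share was possible there. The differences in share, STK11 KO minus STK11 WT in percentage points, then ran from 3.06 to 3.66 for Slc2a1, from -10.1 to -9.19 for Hk2, from 12.01 to 13.9 for Pfkl, from -13.5 to -11.6 for Pfkfb3, from -0.728 to -0.579 for Aldoa and from 13.8 to 14.4 for Eno1. By coding length, an alternative chosen after seeing the data, the difference of Pfkl was 4.07 and that of Eno1 8.28. The planned use of protein lengths was not run. Genes under 1 CPM are limited by depth.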

Other observations

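Txnip, which encodes a glucose-responsive inhibitor of glucose uptake, varied widely among the knockout cultures, with 1421, 835, 463 and 889 CPM in STK11 KO replicates 1 to 4, against 1228, 1078, 1317 and 1119.8 CPM in STK11 WT replicates 1 to 4. It did not pass the edgeR test (log2 fold change -0.40 ± 0.32; adjusted p = 0.321).

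A transcript annotated inside Pkm on the same strand, Gm49759 (chromosome 9, 59580097 to 59583983, GRCm39), rose by a log2 fold change of 1.10 ± 0.19 (edgeR adjusted p = 0.00185), more than the 0.27 ± 0.07 of Pkm itself. It had 217, 195, 189.6 and 267 CPM in STK11 KO, against 95.4, 82.5, 137 and 91.0 CPM in STK11 WT. None of the sources say how reads inside both annotations were assigned.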
